A study of Mus musculus with 13 samples.

Results

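The genes described here are 31 genes of fatty acid oxidation and of the response to PPAR alpha, followed in the duodenum of mice over 3 diets and 2 genotypes. They were taken by name, and each was read from the probe set whose annotation gives that gene's symbol and no other; where a gene had several such probe sets, the brightest on average over the 13 arrays was used. On this basis 28 of the 31 members were measured, among 12393 genes in all. Acsl1 and Ucp2 have no probe set of their own here, and Cyp4a10 was read only by a probe set shared with Cyp4a31.

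The mice carried a mixed strain background and were either wild type (called controls in the labels) or mutant, called ViRas in the labels. The labels used here give neither details of the allele nor the promoter that drives it. From 5 weeks of age the mice received normal diet, high-fat diet or high-fat diet with butyrate for 22 weeks, and RNA of the duodenum was then hybridised to 1 array per sample. Normal diet was represented by 2 wild-type and 3 mutant arrays, high-fat diet by 2 wild-type and 2 mutant arrays, and high-fat diet with butyrate by 1 wild-type and 3 mutant arrays. The design text speaks of mice, but nothing else states that the arrays of a group come from different animals; the p-values rest on the spread among these arrays, part of which may be technical. The array identifiers run in a different number range for each diet, so diet and array series cannot be told apart; the 2 genotypes lie within each series. No normal diet with butyrate was among these arrays, so butyrate was compared on the high-fat diet only.

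Levels are log2 hybridisation signals normalised by the authors with RMA, so a difference of 1 is a doubling of signal. Array medians lay between 6.04 and 6.14, and a signal of 5.09 marked the 30th percentile of all genes, the level under which a gene is called dim here. The signals of different genes depend on their probes, so levels are not ranked between genes: a gene is compared between arrays, and for 2 pairs of genes the difference within an array is compared between diets. The enterocyte markers read as a small intestine: 10 measured markers had a mean level between 11.41 and 12.27, with none at or under 5.09. Markers of acinar pancreas, in contrast, varied widely from array to array, with a mean level from 5.51 to 12.41 over 17 markers. Fewer cells of a type and less RNA per cell cannot be told apart in such bulk samples.

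Fatty acids are burned in a repeating cycle of 4 reactions that shortens the chain and passes electrons to the respiratory chain. Long chains enter mitochondria as carnitine esters, and very long chains are first shortened in peroxisomes. PPAR alpha, a nuclear receptor activated by fatty acids, switches on many genes of both compartments together with its partner RXR, and in the small intestine it is known as a sensor of dietary fat. Butyrate, a product of bacterial fermentation in the gut, is itself a short fatty acid that the epithelium oxidises, and it inhibits histone deacetylases.

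The results turn on a few genes, whose upstream sequences are shown here because several lie in pairs that share a promoter region or a locus. The sequences are those of RefSeq for GRCm38.p6, in which 25 of the 31 members have an entry, and each covers the 250 bases before the annotated start, written 5′ to 3′ on the gene's strand. Capitals mark the CCAAT box and the GC box GGGCGG on either strand. The first is that of Ppara (chr15:85735526-85735775, plus strand), the receptor itself. The second lies between the start sites of Hadha and Hadhb (chr5:30155003-30155252, on the plus strand of Hadhb), the genes of the alpha and beta subunits of the mitochondrial trifunctional protein, which are transcribed away from each other from starts 273 bases apart. The last pair is Acot2 (chr12:83987611-83987860, plus strand) and Acot1 (chr12:84009252-84009501, plus strand), neighbouring thioesterase genes whose starts lie 21641 bases apart.
Ppara: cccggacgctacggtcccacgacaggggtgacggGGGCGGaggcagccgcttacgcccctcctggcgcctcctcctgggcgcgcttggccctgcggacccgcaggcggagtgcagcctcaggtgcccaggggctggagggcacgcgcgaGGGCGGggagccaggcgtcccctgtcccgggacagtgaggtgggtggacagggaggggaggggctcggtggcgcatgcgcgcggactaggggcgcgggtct
Hadhb: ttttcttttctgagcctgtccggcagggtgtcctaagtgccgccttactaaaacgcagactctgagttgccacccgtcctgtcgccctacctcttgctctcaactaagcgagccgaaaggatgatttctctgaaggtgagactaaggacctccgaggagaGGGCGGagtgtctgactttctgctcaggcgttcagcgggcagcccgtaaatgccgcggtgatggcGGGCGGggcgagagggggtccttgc
Acot2: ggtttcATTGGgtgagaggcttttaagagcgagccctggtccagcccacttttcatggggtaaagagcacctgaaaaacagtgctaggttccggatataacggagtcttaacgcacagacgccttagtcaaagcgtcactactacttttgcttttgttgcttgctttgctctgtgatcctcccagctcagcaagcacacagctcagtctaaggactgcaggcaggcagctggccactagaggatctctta
Acot1: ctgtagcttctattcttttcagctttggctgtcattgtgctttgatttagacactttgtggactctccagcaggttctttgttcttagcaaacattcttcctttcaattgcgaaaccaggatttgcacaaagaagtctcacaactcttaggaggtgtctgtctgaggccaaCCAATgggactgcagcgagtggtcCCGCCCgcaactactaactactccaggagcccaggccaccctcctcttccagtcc

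The members' promoters were rich in G and C. Over the 300-base windows (250 before to 50 after the start) their median G+C content was 60.7%, against 52.7% over the 27025 genes of the table, and their median number of CpG pairs was 16 against 7. GGGCGG occurred in 19 of 25 members (76%) and in 38.2% of all genes, and CCAAT in 14 of 25 (56%) and in 41.1% of all genes. TATAAA was found in 0 of 25 members and in 15.7% of all genes. Ppara had the highest G+C content of the members, at 74.7%, whereas Acot1 and Acot2 stood at 52% and 51.3%.

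PPAR alpha binds with RXR to direct repeats of the half-site AGGTCA spaced by 1 base. The half-site alone, without mismatch, was found on either strand in 4 of 25 members (16%) and in 18.1% of all genes. With up to 2 mismatches and on both strands, the spaced repeat was found in 3 of the 25 member windows (12%) and in 4.4% of all genes' windows. The 3 repeats are shown because they are the only such matches near the start. They are written in the orientation of the motif with the repeat in capitals, for Etfa (chr9:55512308-55512320), Plin2 (chr4:86670272-86670284) and Slc25a20 (chr9:108662142-108662154).
Etfa: AGGGCAAAGGTAA
Plin2: AGGTCAGGGGTCC
Slc25a20: AGGTGAAAGGTCG
A match in this window is a description of letters, not of binding, and distal elements were not examined.

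**Figure D1:**
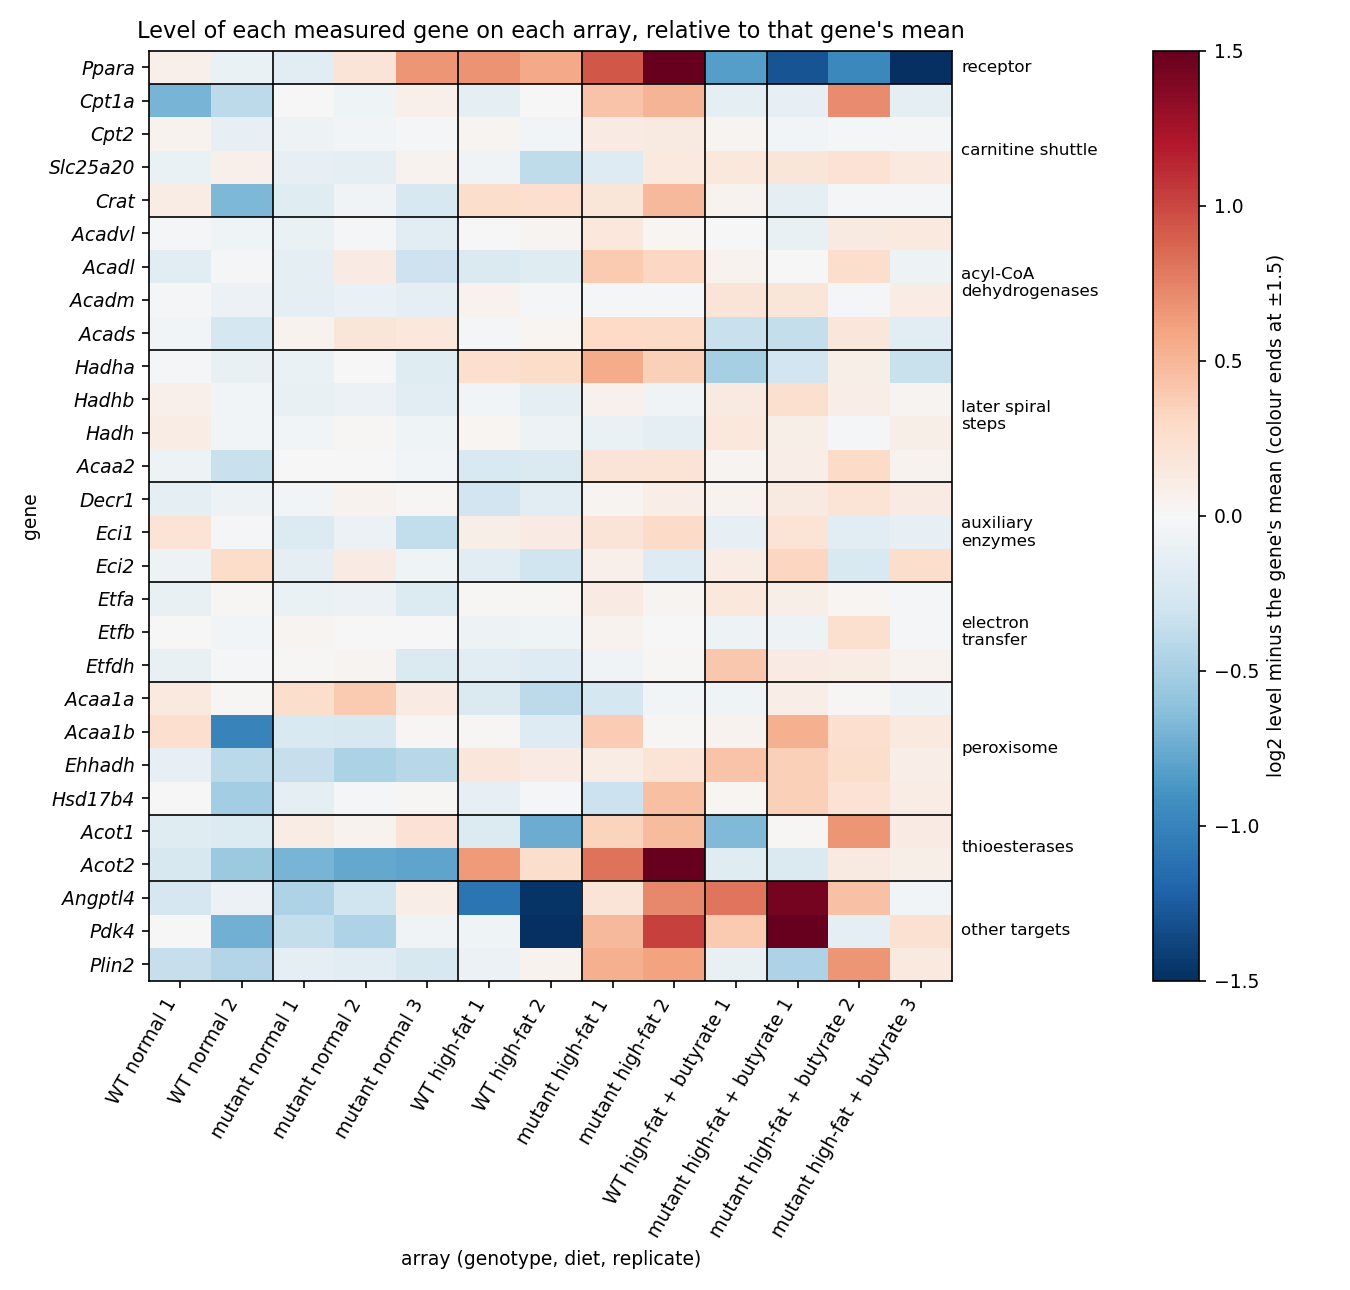
Heat map of the 28 measured genes (rows, by role) on the 13 arrays (columns, by genotype and diet); colour gives the log2 level minus the gene's mean over all arrays. Ppara is lowest on the 4 butyrate arrays (5.87 to 6.55), and both mutant high-fat arrays are red for most genes, for instance at 11.84 and 11.76 for Acadl.

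High-fat diet was first compared with normal diet, with genotype as a term in the fit. The receptor gene Ppara, the carnitine acyltransferases Cpt1a and Crat, the trifunctional subunit Hadha, the peroxisomal bifunctional enzyme Ehhadh, the thioesterase Acot2 and the lipid droplet protein gene Plin2 were higher on high-fat diet, by 0.45 to 1.43. The peroxisomal thiolase Acaa1a was lower by its probe set. These 7 higher and 1 lower genes were 28.6% of the 28 members. Of all genes, 12.7% were called higher and 16.5% lower (limma, Benjamini-Hochberg adjusted p under 0.05), so the share of members called was near that of all genes, although their direction was mostly upward. The members' median difference was 0.14, against -0.031 over all genes, and 20 of 28 (71.4%) lay above 0, against 45.1% of all genes.

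Ppara stood at 7.45 and 7.27 in wild-type and 7.21, 7.56 and 8.04 in mutant arrays on normal diet. On high-fat diet it stood at 8.05 and 7.94 in wild-type and 8.31 and 9.11 in mutant arrays. The diets overlapped only where mutant normal-diet array 3 lay above wild-type high-fat array 2. The fitted difference was 0.87 ± 0.23 (SE), a 1.83-fold higher signal (limma, adjusted p = 0.0114).

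Acot2 encodes a mitochondrial thioesterase that releases free fatty acid from acyl-CoA. It stood at 5.49 and 5.18 in wild-type and 5.04, 4.97 and 4.94 in mutant arrays on normal diet, near or below the 30th percentile of all genes and not shown here to be above background. On high-fat diet it stood at 6.38 and 5.999 in wild-type and 6.55 and 7.24 in mutant arrays. The diets did not overlap, and the difference was 1.43 ± 0.20 on the log2 scale (limma, adjusted p = 0.000194); no fold is given against so low a signal. Its neighbour Acot1, which encodes the cytosolic enzyme, differed by 0.029 ± 0.16 (limma, adjusted p = 0.917). Within each array, Acot2 minus Acot1 averaged -2.08 ± 0.26 (SD, n = 4) on high-fat and -3.54 ± 0.39 (SD, n = 5) on normal diet, with no overlap (two-sided exact permutation test, p = 0.00794, 0.0238 adjusted over 6 such tests). With butyrate the mean was -3.01 ± 0.43 (SD, n = 4), and neither its difference of -0.925 from high-fat diet nor that of 0.53 from normal diet passed (two-sided exact permutation tests, p = 0.0571 and p = 0.103, adjusted 0.0685 and 0.103). Acot2 was itself called on the same high-fat and normal-diet arrays, so the test of the ratio there is not separate support. On normal diet the difference was -2.99 and -3.28 in wild-type and -3.74, -3.74 and -3.94 in mutant arrays. It was -2.08 and -1.91 against -2.44 and -1.89 on high-fat diet, and -2.44 against -3.17, -3.46 and -2.96 with butyrate. Genotype was not a term in these tests and its share differed between diets, so the pooled means mix genotype with diet. A probe set shared by both genes differed by 0.14 ± 0.18.

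Hadha carries the hydratase and long-chain dehydrogenase activities of the trifunctional protein, and Hadhb its thiolase. Hadha stood at 10.71 and 10.62 in wild-type and 10.63, 10.73 and 10.54 in mutant arrays on normal diet, and at 10.98 and 11 in wild-type and 11.28 and 11.08 in mutant arrays on high-fat diet. The diets did not overlap, with a difference of 0.45 ± 0.098 (limma, adjusted p = 0.00358). Hadhb, whose start faces that of Hadha, differed by 0.021 ± 0.068 by its brighter probe set, with values from 11.23 to 11.47 on normal and 11.26 to 11.46 on high-fat diet. A second Hadhb probe set fell by 0.71.

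Ehhadh, which performs the middle steps of peroxisomal oxidation and is a classical PPAR alpha target, lay at 9.43 and 9.15 in wild-type and 9.22, 9.09 and 9.14 in mutant arrays on normal diet. On high-fat diet it lay at 9.73 and 9.68 in wild-type and 9.66 and 9.76 in mutant arrays. The diets did not overlap and the arrays of high-fat diet lay close together. The difference was 0.49 ± 0.081 (limma, adjusted p = 0.000545).

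Crat, which exchanges short acyl groups between carnitine and CoA, lay at 8.68 and 7.90 in wild-type and 8.40, 8.52 and 8.33 in mutant arrays on normal diet and at 8.84 and 8.82 in wild-type and 8.75 and 9.06 in mutant arrays on high-fat diet. It differed by 0.50 ± 0.13 (limma, adjusted p = 0.0109). Plin2, which coats lipid droplets, lay at 10.28 and 10.18 in wild-type and 10.48, 10.46 and 10.38 in mutant arrays on normal diet and at 10.53 and 10.68 in wild-type and 11.16 and 11.23 in mutant arrays on high-fat diet. It differed by 0.58 ± 0.17 (limma, adjusted p = 0.0187). Neither gene's diets overlapped. The Plin2 call was lost without mutant high-fat array 1 (adjusted p = 0.0604) or array 2 (adjusted p = 0.0661).

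Cpt1a, the gate for long chains into mitochondria, depended on the probe set read. The brightest one lay at 8.72 and 9.03 in wild-type and 9.42, 9.36 and 9.50 in mutant arrays on normal diet, and at 9.28 and 9.42 in wild-type and 9.84 and 9.93 in mutant arrays on high-fat diet. It differed by 0.46 ± 0.15 (limma, adjusted p = 0.0341), with overlapping diets, and the call was lost without wild-type normal-diet array 1, mutant normal-diet array 1 or 2, wild-type high-fat array 2 or either mutant high-fat array (adjusted p up to 0.0902). The other Cpt1a probe sets differed by -0.36 and -0.35, and the mean over the gene's probe sets turned the sign to -0.081. One of these other sets lay from 2.61 to 3.15 over all arrays, under the dim level. It was not shown to be above background, yet it enters that mean with equal weight.

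Acaa1a, the last enzyme of the peroxisomal cycle, lay at 9.27 and 9.14 in wild-type and 9.39, 9.51 and 9.25 in mutant arrays on normal diet. On high-fat diet it lay at 8.90 and 8.73 in wild-type and 8.86 and 9.08 in mutant arrays, with no overlap. The difference was -0.40 ± 0.081 (limma, adjusted p = 0.00226), and a second probe set differed by -0.73. Of 2 probe sets shared by Acaa1a and its close copy Acaa1b, one differed the other way, by 0.38 ± 0.13, and the other by 0.066 ± 0.067. That of Acaa1b alone differed by 0.32 ± 0.19, so the direction for the peroxisomal thiolases is uncertain.

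Probe set names ending in _x_at, which mark sets with probes that can match other transcripts too, moved together with diet over the whole array. Of 1282 such probe sets with 1 gene symbol, 35.5% were called lower and 7.33% higher on high-fat than normal diet, with a median of -0.18. Among 14098 probe sets with the plain ending, 12.9% were lower and 16.5% higher, with a median near 0. Of the members' probe sets, 6 of 9 with the _x_at ending were called lower and 0 higher, while 8 of 29 with the plain ending were called higher and 0 lower. When butyrate was added the sides turned: 5 of the 9 were called higher and 0 lower, as were 31.4% of all such probe sets against 7.57% lower. Acaa1a and Hadh were read from _x_at probe sets here, and the opposing probe sets of Cpt1a, Hadhb and Hsd17b4 also had that ending. The part of the probe set type in the diet differences of these genes was not tested.

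**Figure D2:**
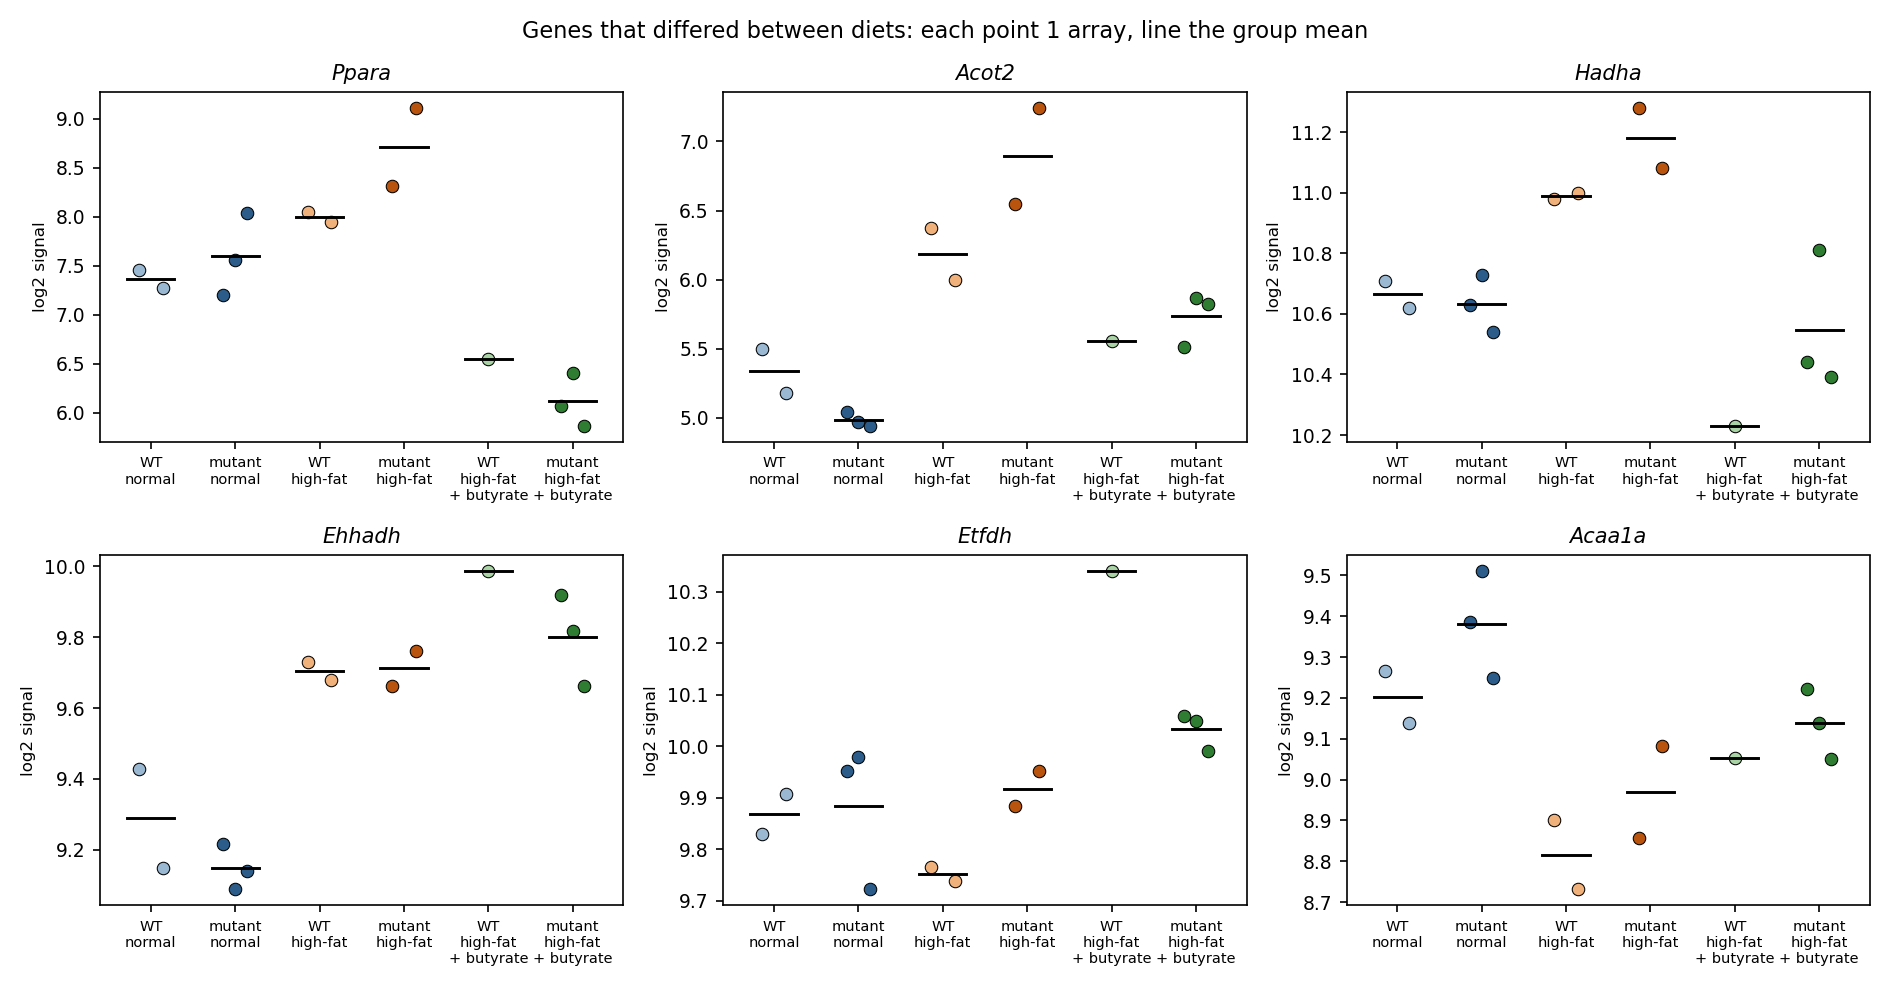
Level of 6 genes (log2 signal) on each array, by genotype and diet; each point is 1 array and each line a group mean. Acot2 is highest on the 4 high-fat arrays (5.999 to 7.24), Ppara is lowest on the 4 butyrate arrays, and Ehhadh lies above its normal-diet range on both other diets.

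The remaining members did not pass in this comparison. The acyl-CoA dehydrogenases, which carry out the first step for chains of different length, gave small differences above 0: Acadl 0.20, Acads 0.15, Acadvl 0.13 and Acadm 0.086. Cpt2 and the carrier Slc25a20, the inner-membrane part of the carnitine shuttle, differed by 0.11 and -0.0595. The electron transfer flavoprotein genes Etfa, Etfb and Etfdh, which take electrons from the dehydrogenases, differed by 0.14, -0.012 and -0.045. Of the enzymes for double bonds, Eci1, Eci2 and Decr1 differed by 0.26, -0.17 and -0.019. Eci2 lay between 9.17 and 9.80 over all arrays and passed in none of the comparisons made here. Of the later mitochondrial steps, Hadh and Acaa2 differed by -0.074 and 0.104. Hsd17b4, a peroxisomal bifunctional enzyme, lay between 10.11 and 11.09 and differed by 0.15 ± 0.14, while its _x_at probe set differed by -0.55 ± 0.13. Angptl4 and Pdk4, secreted lipase inhibitor and kinase that holds back glucose oxidation, differed by -0.16 ± 0.36 and 0.28 ± 0.42, with wide intervals.

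Within genotypes the rise was tested separately. In wild type 2 members were called, both higher: Acot2 by 0.85 ± 0.23 (limma, adjusted p = 0.0349) and Ehhadh by 0.42 ± 0.12 (limma, adjusted p = 0.0498). Ehhadh differed by 0.28 without wild-type normal-diet array 2 (adjusted p = 0.209). All genes gave 5.62% higher and 5.42% lower there. In mutants 7 members were called higher and 1 lower, against 7.67% and 10.1% of all genes: Acot2 by 1.91 ± 0.21 (adjusted p = 0.00033), Ppara by 1.11 ± 0.27, Plin2, Ehhadh, Hadha, Eci1 and Acadl were higher and Acaa1a lower. Eci1, which moves double bonds of unsaturated chains, lay at 9.62, 9.73 and 9.45 on normal diet and at 10.01 and 10.11 on high-fat diet in mutants, but at 10.02, 9.79, 9.91 and 9.94 in wild type. Acadl, the long-chain dehydrogenase, lay at 11.31, 11.57 and 11.14 on normal diet and at 11.84 and 11.76 on high-fat diet in mutants, the last 2 above all other arrays of the series. The wild-type count fell to 0 without either wild-type high-fat array or wild-type normal-diet array 2, and rose to 4 without wild-type normal-diet array 1. It was also 0 without any 1 of the 3 mutant normal-diet arrays, and 1 without the single wild-type array with butyrate or either mutant array on high-fat diet. The calls in mutants numbered 3 without mutant normal-diet array 1 or either mutant high-fat array and 5 without mutant normal-diet array 3. Acot2 kept its call in mutants whichever array was left out, while Ppara lost it without mutant normal-diet array 1 (adjusted p = 0.0582) or mutant high-fat array 2 (where the difference was 0.71, adjusted p = 0.162), Hadha without mutant high-fat array 1 (adjusted p = 0.12) and Ehhadh without mutant high-fat array 2 (adjusted p = 0.0547). Over the 13 fits that each left out 1 array, Acaa1a kept its call in 10, Eci1 and Acadl in 9 each and Plin2 in 3. The change of the genotype difference with diet has a test of its own, given with the genotype comparisons.

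The wider pathway moved in both directions. Of 84 measured genes listed beside the members, 14 were higher and 10 lower on high-fat diet (28.6%, against 29.2% of all genes). Nrip1, a corepressor of nuclear receptors, was higher by 1.78 ± 0.17, the fatty acid transporter gene Slc27a4 by 0.74 ± 0.087, and the peroxisomal oxidase gene Acox3 by 0.89 ± 0.11, whereas Hsd17b10, a mitochondrial short-chain dehydrogenase, was lower by 0.595 ± 0.078 (limma, adjusted p from 1.04e-05 to 0.000114). Rxra, the partner receptor, was higher by 0.48 ± 0.14 (limma, adjusted p = 0.0208). Pparg, Ppard and the coactivator gene Ppargc1a differed by -0.098, -0.081 and -0.12, the fatty acid binding protein gene Fabp1 by 0.036, the scavenger receptor gene Cd36 by -0.12 and Fgf21 by 0.41, and none of these passed. Over all arrays Ppard lay from 4.24 to 4.69, under the dim level, and Fgf21 from 3.50 to 5.24, mostly under it. Neither was shown to be above background, so their small differences do not show an unchanged transcript. Of the tissue markers, 3 of 10 for enterocytes, 2 of 6 for proximal intestine and 1 of 6 for adipocytes were called higher, 1 of 5 for crypt cells and 1 of 6 for liver lower, and 1 of 7 for smooth muscle in each direction. The part of tissue makeup in the members' differences was not tested.

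Adding butyrate to the high-fat diet was compared next. Ppara fell most, to levels under those of normal diet, and Hadha, Acot2 and the short-chain dehydrogenase gene Acads fell with it. Etfdh, Hadh and Slc25a20 were higher by smaller amounts. Thus 3 members were called higher and 4 lower, against 20.1% and 12.5% of all genes, and the members' 25% called in all compared with 32.6% of all genes. The high-fat arrays enter both this comparison and the preceding one, so opposite signs in the 2 are not independent. The count was 4 without wild-type high-fat array 2, the wild-type butyrate array or mutant butyrate array 1.

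Ppara stood at 6.55 in the wild-type array and at 6.07, 6.41 and 5.87 in the mutant arrays with butyrate. All 4 values lay below all 9 arrays of the other diets. The difference from high-fat diet was -2.18 ± 0.24, a 4.55-fold lower signal (limma, adjusted p = 2.95e-05). Over the 22 alternatives run, which include leaving out each array in turn, it stayed between -2.48 and -1.90.

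Hadha stood at 10.23 in the wild-type array and at 10.44, 10.81 and 10.39 in the mutant arrays with butyrate, below all high-fat arrays. It differed by -0.65 ± 0.105 (limma, adjusted p = 0.000423). Hadhb stood at 11.53 in the wild-type and 11.63, 11.49 and 11.44 in the mutant arrays, and differed by 0.18 ± 0.073 (limma, adjusted p = 0.0808). The difference Hadha minus Hadhb within an array was -0.76 and -0.74 in wild-type and -0.64, -0.58 and -0.69 in mutant arrays on normal diet. On high-fat diet it was -0.37 and -0.26 in wild-type and -0.18 and -0.26 in mutant arrays. With butyrate it was -1.31 in the wild-type and -1.19, -0.67 and -1.05 in the mutant arrays. The means were thus -0.68 ± 0.074 (SD, n = 5), -0.27 ± 0.081 (SD, n = 4) and -1.05 ± 0.28 (SD, n = 4). High-fat diet differed from normal diet and butyrate from high-fat diet without overlap (two-sided exact permutation tests, p = 0.00794 and p = 0.0286, adjusted 0.0238 and 0.0475). The ratio of the signals of the 2 divergent genes thus differed between diets, as read by these probe sets. Hadha was itself called on the same arrays, so these tests are not separate support. Both p-values are the smallest that such a test can give with these arrays. The second Hadhb probe set differed by 0.56 when butyrate was added.

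**Figure D3:**
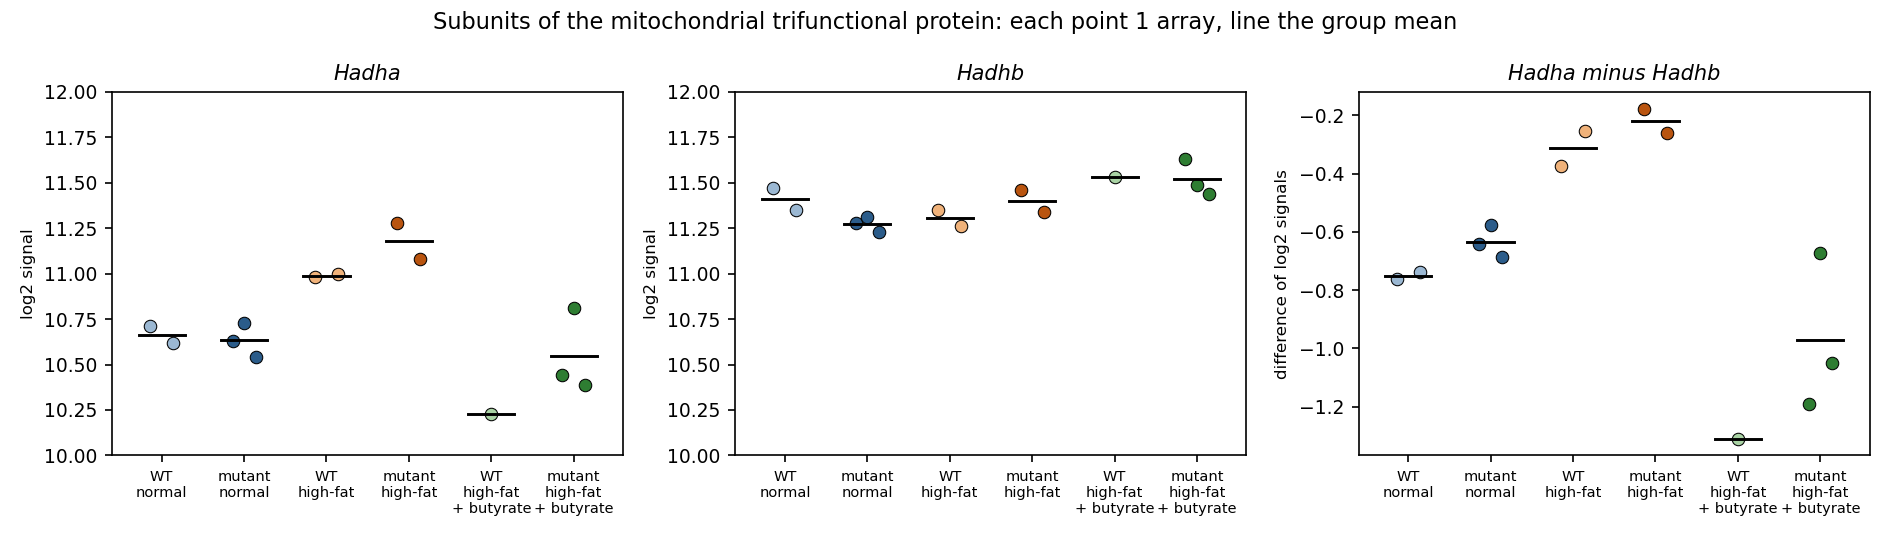
Level of Hadha and of Hadhb (log2 signal, same axis range) and their difference within each array, by genotype and diet; points are arrays and lines group means. Hadha differs between diets, while Hadhb by its brighter probe set stays between 11.23 and 11.63. The difference is thus least negative on high-fat diet (mean -0.27) and most negative with butyrate (mean -1.05).

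Acot2 stood at 5.55 in the wild-type array and at 5.51, 5.87 and 5.82 in the mutant arrays with butyrate. These lay between the other diets, below every high-fat and above every normal-diet array. The difference from high-fat diet was -0.89 ± 0.22 (limma, adjusted p = 0.00652). Acads stood at 8.89 in the wild-type array and 8.87, 9.40 and 9.06 in the mutant arrays, against 9.19 and 9.26 in wild-type and 9.52 and 9.51 in mutant arrays on high-fat diet. It differed by -0.38 ± 0.10 (limma, adjusted p = 0.012), and only mutant butyrate array 2 overlapped the high-fat arrays.

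Etfdh, which hands electrons from the flavoprotein to ubiquinone, stood at 10.34 in the wild-type array and 10.06, 10.05 and 9.99 in the mutant arrays with butyrate. On high-fat diet it stood at 9.77 and 9.74 in wild-type and 9.88 and 9.95 in mutant arrays. The difference was 0.28 ± 0.094 (limma, adjusted p = 0.0362), and without the single wild-type butyrate array it was 0.16 (adjusted p = 0.224). Hadh, the dehydrogenase for medium and short chains, differed by 0.17 ± 0.059 (limma, adjusted p = 0.0397), at 13.13 in the wild-type and 13.06, 12.96 and 13.06 in the mutant arrays with butyrate against 13.01 and 12.90 in wild-type and 12.87 and 12.84 in mutant arrays on high-fat diet. Slc25a20 differed by 0.28 ± 0.10 (limma, adjusted p = 0.0496), at 10.71 in the wild-type and 10.73, 10.76 and 10.70 in the mutant arrays against 10.50 and 10.17 in wild-type and 10.36 and 10.70 in mutant arrays. The call of Etfdh was lost without each of 5 arrays in turn, that of Hadh without 8 of the 13 and that of Slc25a20 without 12, and second probe sets of Hadh and Slc25a20 differed by 0.061 and -0.15.

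Within mutants 3 members were lower and none higher, against 8.78% and 12.9% of all genes. Ppara differed by -2.59 ± 0.27 (adjusted p = 0.000138), Acot2 by -1.16 ± 0.21 (adjusted p = 0.00296) and Hadha by -0.63 ± 0.13 (adjusted p = 0.00557). The Hadha call was lost without mutant high-fat array 1 (adjusted p = 0.0601). Mutant butyrate array 2 stood apart from arrays 1 and 3 for several members, at 10.13 against 9.30 and 9.28 for Cpt1a and at 11.28 against 10.16 and 10.77 for Plin2. Without it 7 members were called. Its enterocyte marker mean was also the lowest of the series at 11.41, and its acinar pancreas mean was 9.95 against 6.57 and 5.68, and their part in these values was not tested.

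In wild type the comparison rests on 1 butyrate array, which the model assumes to vary like the other groups. Angptl4 was higher by 2.09 ± 0.47 and Etfdh by 0.59 ± 0.13, and Hadha was lower by 0.76 ± 0.17 and Ppara by 1.45 ± 0.36 (limma, adjusted p from 0.013 to 0.022). This was 2 higher and 2 lower, against 9.55% and 5.14% of all genes, and 0 members were called without wild-type high-fat array 2. Ppara also lost its call (adjusted p = 0.0756) when array 1 of that group was left out.

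Among the 84 listed partner genes 11 were higher and 15 lower when butyrate was added, 31% in all and near the 32.6% of all genes. Nrip1 fell by 2.93 on the log2 scale, the coactivator gene Ppargc1b by 1.59, the triglyceride lipase gene Pnpla2 by 0.97 and the pyruvate dehydrogenase kinase gene Pdk2 by 1.27 (limma, adjusted p from 2.12e-07 to 4.94e-05). Rxra differed by -0.55 ± 0.15 (limma, adjusted p = 0.0131). Pparg differed by -0.40, Ppargc1a by -0.11, Ppard by -0.00088, Fabp1 by 0.037, Cd36 by 0.049 and Fgf21 by -0.31, and none of these passed. All Ppard values and most Fgf21 values lay under the dim level. The macrophage markers moved too, with 7 of 7 differences above 0, against 54.3% of all genes, and 2 called higher. In mutants 7 of 7 lay above 0 with a median of 0.82. In wild type, with 1 butyrate array, 3 of 7 did, with a median of -0.11. Of the enterocyte markers 3 of 10 were called lower and 1 higher, and of the proximal-intestine markers 3 of 6 lower. Calls were also made for 2 of 5 crypt markers (higher), 3 of 7 for smooth muscle (2 higher), 2 of 6 for adipocytes (lower) and 3 of 6 for liver (2 higher). Their part in the members' differences was not tested.

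High-fat diet with butyrate was also set against normal diet. Ehhadh remained higher by 0.66 ± 0.081 (limma, adjusted p = 0.000687), at 9.99 in the wild-type and 9.92, 9.82 and 9.66 in the mutant arrays, all above every normal-diet array. Acadm, the medium-chain dehydrogenase gene, was higher by 0.23 ± 0.058 (limma, adjusted p = 0.0276), at 10.99 in the wild-type and 10.98, 10.78 and 10.91 in the mutant arrays against 10.77 and 10.71 in wild-type and 10.66, 10.69 and 10.66 in mutant arrays on normal diet. Ppara was lower by 1.31 ± 0.23 (limma, adjusted p = 0.00478). These 2 higher and 1 lower members compare with 6.48% and 4.07% of all genes. Of the members' differences 23 of 28 (82.1%) lay above 0, against 50.6% of all genes, with a median of 0.17 against 0.0033. The count was 6 without wild-type normal-diet array 1 and 5 without mutant butyrate array 2. The Acadm call was lost without the wild-type butyrate array (adjusted p = 0.11), mutant butyrate array 1 or 3 or any 1 mutant normal-diet array. Hadha and Acot2 differed by -0.20 and 0.54 and did not pass. Of the partners 11 were higher and 6 lower: Ppargc1b and Nrip1 fell by 1.32 and 1.16, and the ketone body enzyme gene Acat1 and the acyl-CoA synthetase gene Acsl6 were higher by 0.48 and 2.21 (limma, adjusted p from 0.000151 to 0.00639). Acsl6 lay from 3.27 to 5.51 on normal diet, mostly below the 30th percentile of all genes.

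**Figure D4:**
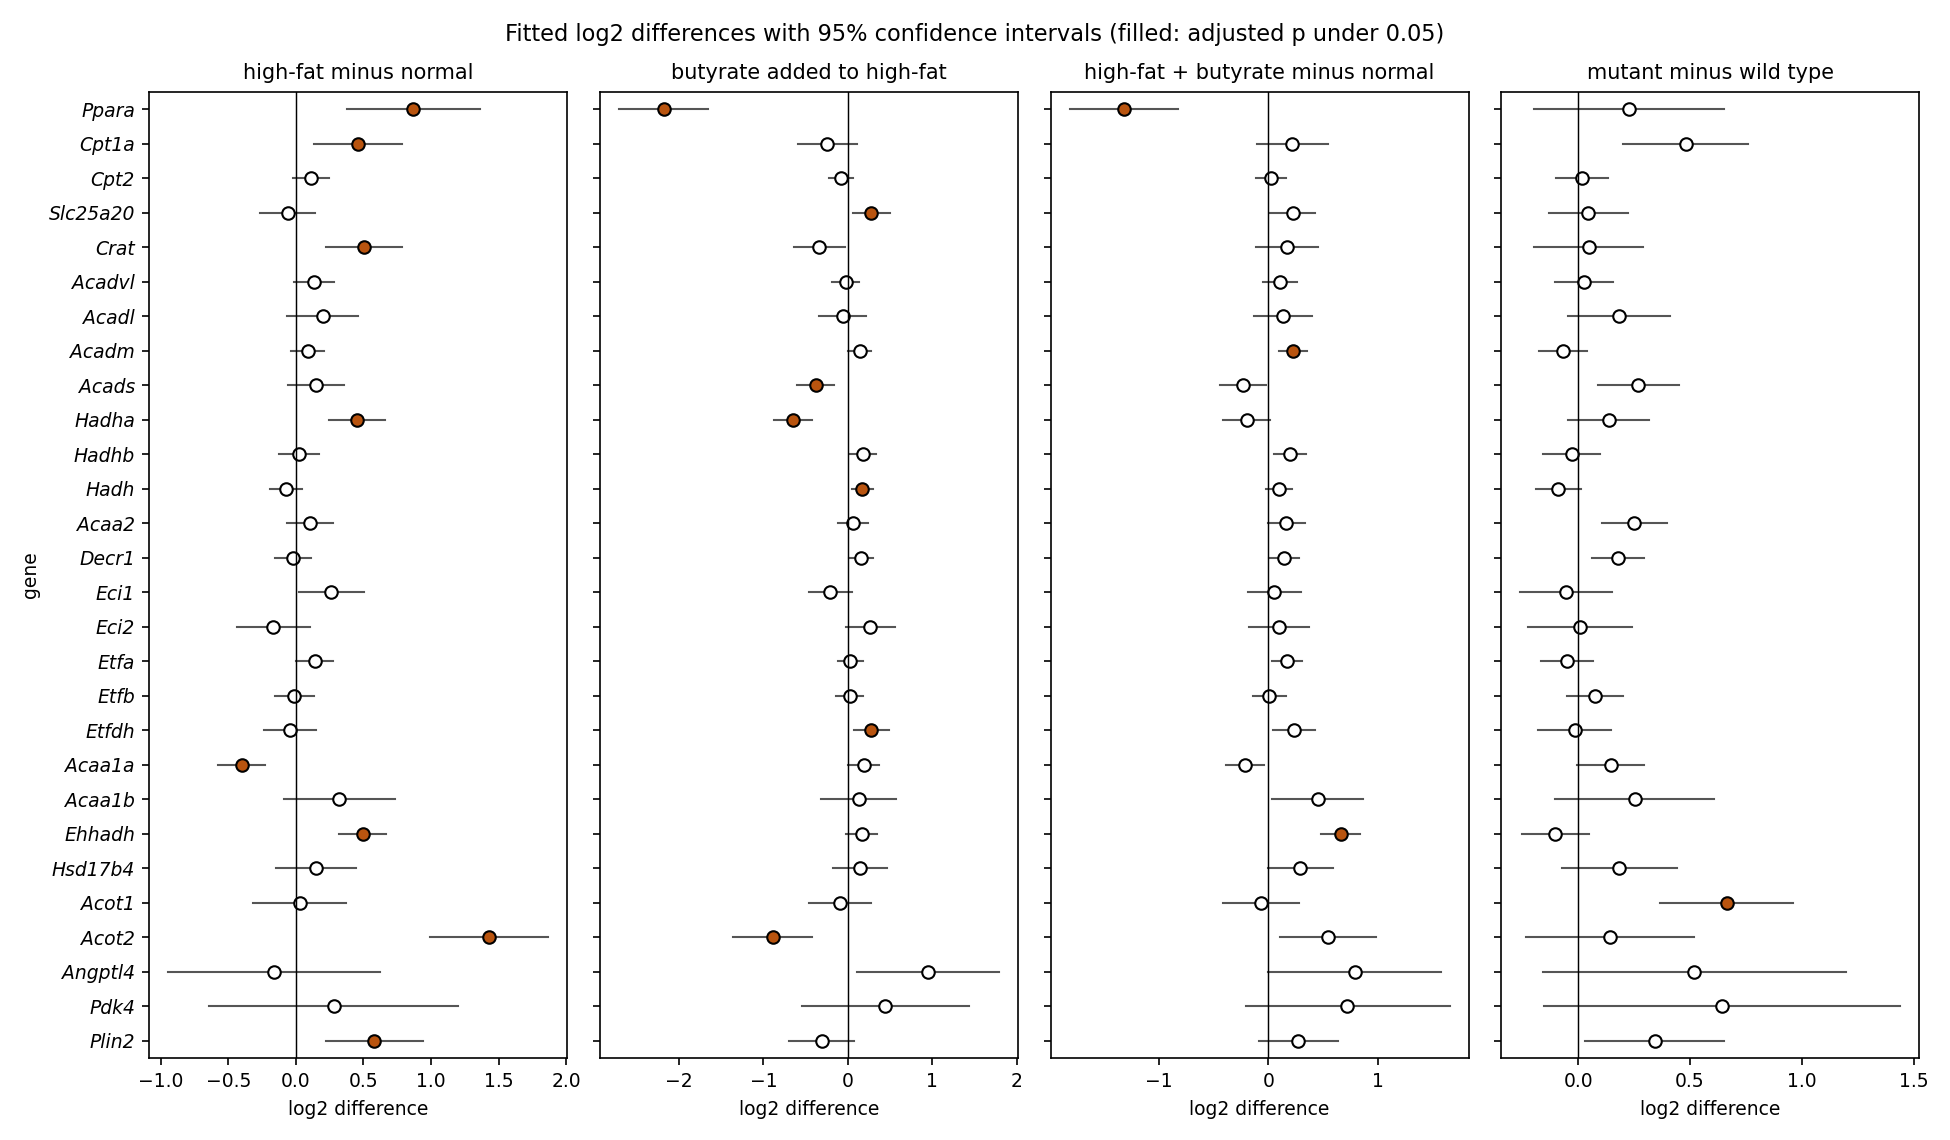
Fitted log2 differences of the 28 genes in 4 comparisons, with 95% confidence intervals; filled points have an adjusted p under 0.05. Ppara is right of 0 for high-fat diet (0.87) and far left when butyrate is added (-2.18), and Acot1 is the only filled point between genotypes (0.66).

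Mutant and wild-type arrays were then compared within diets, where array series does not differ. With diet as a term, 1 member was called higher and none lower, against 0.428% and 0.597% of all genes. This was Acot1, which lay at 8.48 and 8.46 in wild-type and 8.78, 8.71 and 8.88 in mutant arrays on normal diet. It lay at 8.46 and 7.91 in wild-type and 8.99 and 9.13 in mutant arrays on high-fat diet, and at 7.995 in the wild-type and 8.68, 9.33 and 8.78 in the mutant arrays with butyrate. All 8 mutant arrays lay above all 5 wild-type arrays. The difference was 0.66 ± 0.14, a 1.58-fold higher signal (limma, adjusted p = 0.0465), and the call held without mutant butyrate array 1, 2 or 3 and was lost without each of the other 10 arrays (adjusted p up to 0.108). The number of members called was 4 without mutant butyrate array 1 and 2 without array 2 or 3. The probe set shared with Acot2 differed by 0.555 ± 0.16.

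Other members lay in the same direction without passing. Cpt1a differed by 0.48 ± 0.13 and Acaa2, the last enzyme of the mitochondrial cycle, by 0.25 ± 0.068 (limma, adjusted p = 0.0856 for both). Acads differed by 0.27 ± 0.084, Decr1, which reduces double bonds, by 0.18 ± 0.053, and Plin2 by 0.34 ± 0.14 (limma, adjusted p from 0.112 to 0.255). Counted after the values were seen, 4 members (Cpt1a, Acaa2, Decr1 and Acot1) had every mutant array above every wild-type array in each of the 3 diets, or 14.3% of members against 1.8% of all genes. One member, Acadm, had every mutant array below, against 2.15% of all genes. All 3 single-gene probe sets of Acaa2 differed in the same direction. The other probe sets of that gene differed by 0.33 and 0.39, but in 1 of them mutant butyrate array 3 (10.21) lay below the wild-type butyrate array (10.38). By the second Decr1 probe set the pattern did not hold: with butyrate it lay at 8.61 in wild type and 8.48, 8.48 and 8.24 in mutants. Nor did it hold by the other Cpt1a probe sets. With butyrate these lay at 6.94 in wild type against 6.70, 6.997 and 6.87 in mutants, and at 3.07 against 2.90, 3.01 and 2.89, the last set under the dim level.

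On normal diet 0 members passed limma's adjusted threshold, against 0.0242% of all genes, and 2 had an unadjusted p under 0.05, or 7.14% against 12.7% of all genes: Cpt1a, at 9.42, 9.36 and 9.50 in mutants against 8.72 and 9.03, and Eci1, at 9.62, 9.73 and 9.45 against 10.02 and 9.79. Their differences were 0.55 ± 0.22 and -0.31 ± 0.13 (limma, adjusted p = 0.33 and 0.359), and that of Eci1 was -0.19 without wild-type normal-diet array 1. Members lay evenly on both sides, with 14 of 28 (50%) above 0, against 53.4% of all genes.

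On high-fat diet 0 members passed as well, against 0.0403% of all genes, but 26 of 28 differences (92.9%) lay above 0, against 53% of all genes, with a median of 0.18 against 0.015 over all genes. Of the members 10 (35.7%) had an unadjusted p under 0.05, all with mutants higher; over all genes 11.3% had one, and 6.05% with mutants higher. The median kept between 0.17 and 0.25 when any 1 high-fat array was left out. The direction of single members was less stable. Without mutant high-fat array 2 the differences of Crat, Ehhadh and Hsd17b4 fell below 0, to -0.079, -0.041 and -0.24. That of Ehhadh was also below 0 without wild-type high-fat array 2, at -0.018. The 26 values share 4 arrays and are not independent of each other, and no test was made of the count. Without mutant butyrate array 2, 1 member was called, Acot1 (adjusted p = 0.0355).

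Angptl4 stood at 7.07 and 6.70 in wild-type and 8.36 and 8.88 in mutant arrays on high-fat diet. The difference was 1.74 ± 0.38, a 3.33-fold higher signal in mutants (limma, adjusted p = 0.161). Its values on normal diet were 7.91 and 8.08 in wild-type and 7.70, 7.86 and 8.26 in mutant arrays, so the wild-type high-fat arrays were the lowest of the series. With butyrate it stood at 8.97 in the wild-type and 9.60, 8.61 and 8.13 in the mutant arrays.

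Acot1 differed by 0.87 ± 0.21 on high-fat diet, Acaa2 by 0.42 ± 0.11 and Acadl by 0.55 ± 0.15 (limma, adjusted p from 0.189 to 0.205). Acaa2 lay at 11.37 and 11.38 in wild-type and 11.79 and 11.8 in mutant arrays, and Acadl at 11.24 and 11.27 against 11.84 and 11.76. In neither gene did the genotypes overlap, and the arrays of each group lay close together. Pdk4 lay at 8.70 and 6.93 in wild-type and 9.26 and 9.80 in mutant arrays, and differed by 1.71 ± 0.57 (limma, adjusted p = 0.3). The size of that difference rests on wild-type array 2: it was 0.82 without it and 2.6 without wild-type array 1. Ppara and Acot2 both differed by 0.71 (limma, adjusted p = 0.397 and 0.279), and by 0.31 and 0.36 without mutant array 2. Without mutant array 1 the Ppara difference was 1.11.

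**Figure D5:**
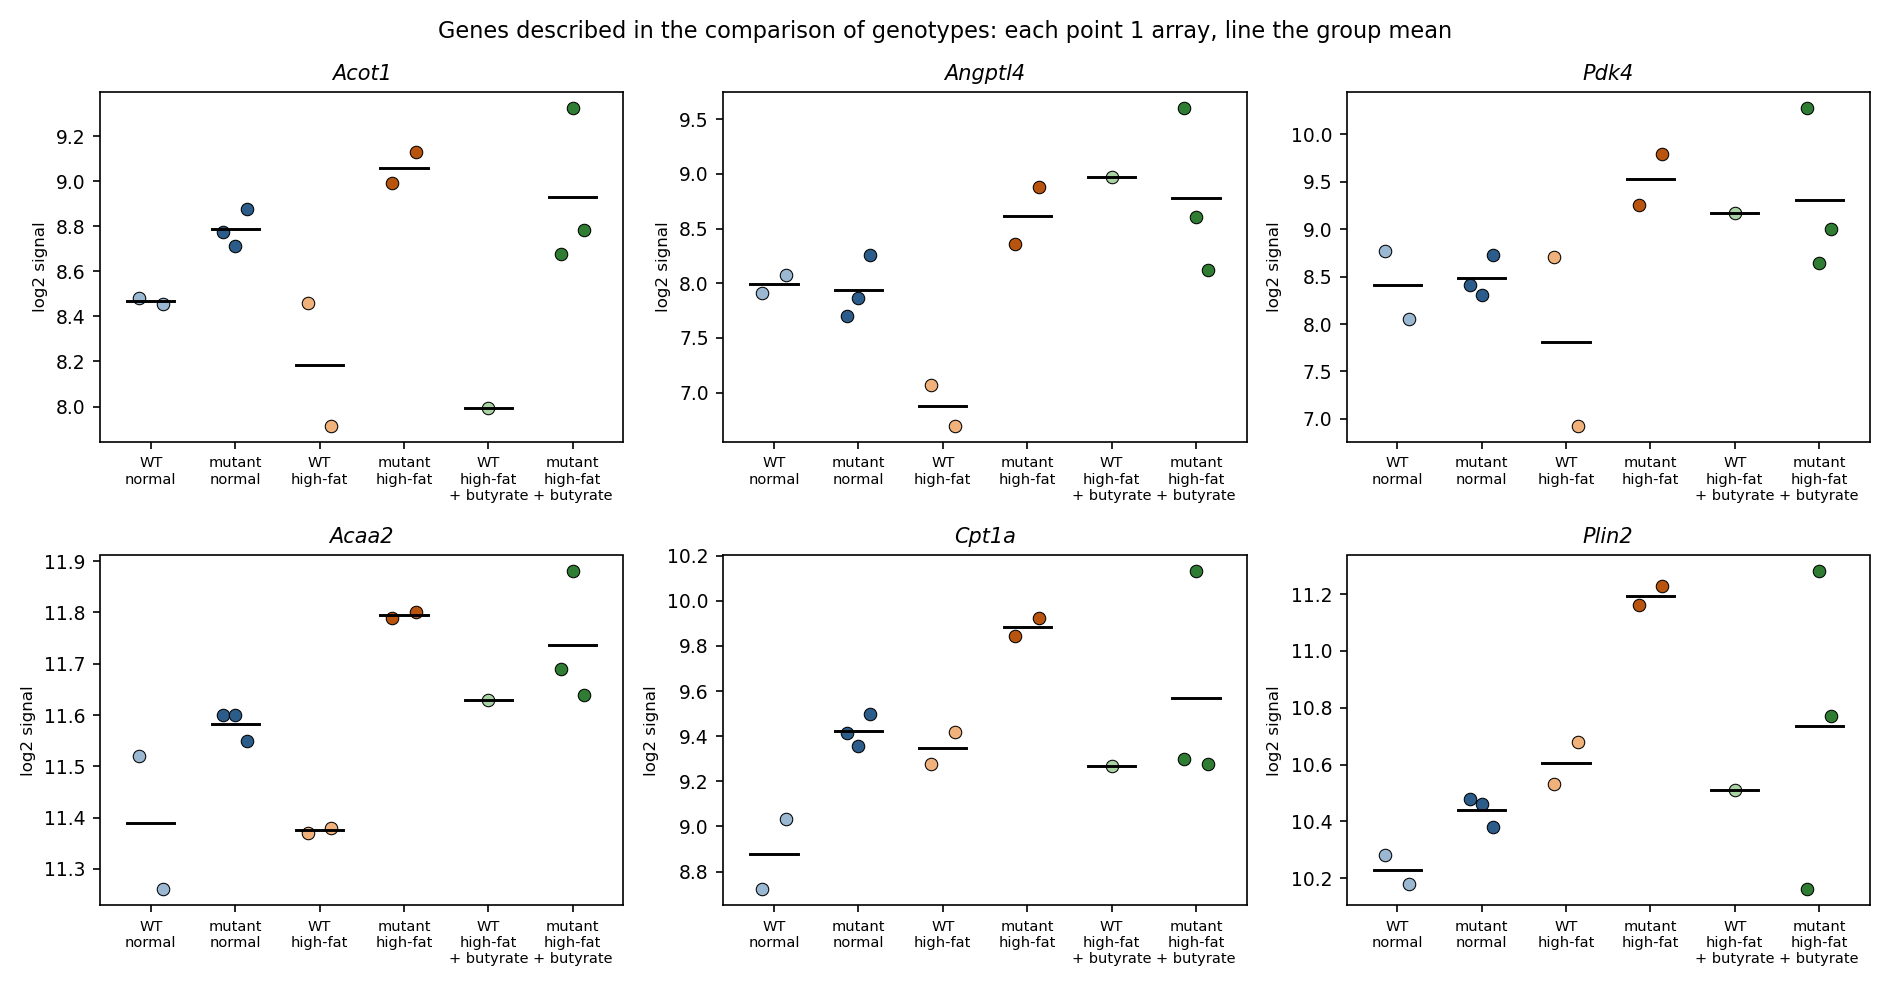
Level of 6 genes (log2 signal) on each array, by genotype and diet; each point is 1 array and each line a group mean. Mutant arrays of Acot1 lie above all wild-type arrays (8.68 to 9.33 against 7.91 to 8.48), and Angptl4 has its lowest values in wild type on high-fat diet (7.07 and 6.70).

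Tissue markers differed between the same arrays. On high-fat diet the acinar pancreas mean was 10.30 and 12.35 in wild-type and 9.74 and 5.51 in mutant arrays, and the macrophage mean 8.21 and 8.02 against 7.44 and 6.82. The crypt mean was 7.82 and 7.76 against 7.22 and 7.004. Over all diets 7 of 7 macrophage and 5 of 5 crypt markers were lower in mutants, with 2 and 1 called. With the acinar mean as a covariate the median of the members on high-fat diet was 0.17 and that of Angptl4 1.71, and without wild-type and mutant high-fat arrays 2, the highest and lowest in acinar signal, they were 0.17 and 1.29. The part of the macrophage and crypt markers in the members' values was not tested.

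On high-fat diet with butyrate 0 members passed limma's threshold, as did 0% of all genes (0 of 12393, with 749 at an unadjusted p under 0.05). The comparison has 1 wild-type array. Acot1, 0.93 ± 0.24 higher in mutants, and Etfdh, 0.31 ± 0.12 lower, were the members with an unadjusted p under 0.05, 7.14% against 6.04% of all genes (limma, adjusted p = 0.787 and 0.815).

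The change of the genotype difference from normal to high-fat diet was tested directly. No member passed, against 0.00807% of all genes, and 4 (14.3%) had an unadjusted p under 0.05, against 5.01% of all genes. Acot2 and Angptl4 changed most among those with an unadjusted p under 0.05, by 1.06 ± 0.31 and 1.79 ± 0.52, followed by Acadl with 0.56 ± 0.20 and Eci1 with 0.44 ± 0.19 (limma, adjusted p = 0.915 for each). A difference in diet response between the genotypes was therefore not shown for any member at this number of arrays. The 95% confidence intervals were wide, from 0.39 to 1.74 for Acot2 and from 0.66 to 2.92 for Angptl4.

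Of the partner genes, 1 of 84 passed between genotypes with diet as a term: Acadsb, the dehydrogenase for short branched chains, was higher by 0.50 ± 0.10 in mutants (limma, adjusted p = 0.046). Its levels were 6.24 to 6.54 in wild-type and 6.64 to 7.21 in mutant arrays. Pparg differed by 0.76 ± 0.19 and Ppargc1a by -0.43 ± 0.11 (limma, adjusted p = 0.0691 and 0.0714). Rxra, Ppard, Fabp1, Cd36 and Fgf21 differed by 0.035, -0.17, 0.038, 0.25 and 0.00093, and none passed. Ppard and Fgf21 were read at the low levels given with the diet comparison.

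Cyp4a10, an omega-hydroxylase that responds strongly to PPAR alpha in liver, could be read only through the probe set shared with Cyp4a31. It lay from 8.92 to 9.74 on normal, 9.12 to 10.91 on high-fat and 8.65 to 10.31 on high-fat diet with butyrate. The difference of high-fat from normal diet was 0.89 ± 0.33 (limma over all probe sets, adjusted p = 0.0537), with overlapping values.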

How the data were processed

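Values are the log2 signals of the series matrix as deposited by the authors, who per the submitters' processing notes used RMA in Affymetrix Expression Console 1.1. Scanner files were not used here. The labels name a whole-transcript labelling kit although the probe sets carry the names of a 3' expression array, and this was not resolved. Probe sets were named from the platform annotation of GEO: 20380 have 1 gene symbol, 691 several and 1555 none, beside 64 controls. Per gene the probe set with the highest mean was kept, giving 12393 genes on 13 arrays. The members, the listed partner genes and the markers were chosen with earlier results of these data known.

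Differences were fitted with limma 3.58.1 in R 4.3.3 (lmFit, then eBayes with trend, two-sided tests, all 13 arrays). Comparisons within a diet or genotype used 6 group means (7 residual degrees of freedom), and the others diet plus genotype (9). P-values were adjusted by Benjamini-Hochberg over all genes, at 0.05. No gene was filtered out, and all 28 measured members were tested. Every measured member is given. Values per array of the groups compared are printed for members called in any comparison, and for the up to 4 members of smallest p in each direction (unadjusted p under 0.05) where a comparison had none. Up to 4 called partner genes per comparison are named, and Fabp1, Cd36, Rxra, Pparg, Ppard, Ppargc1a and Fgf21 whatever their p; other genes under that rule are not reported here. Ratios within an array had an exact permutation test, in which arrays were exchanged between diets regardless of genotype. Replicate numbers gave no sign of pairing: deviations of same-numbered arrays correlated with a median of 0.012 over 21 pairs, from -0.33 to 0.42. Arrays of other number gave -0.012 over 36 pairs, from -0.42 to 0.38. With so few arrays per group this cannot exclude that some numbers share a batch. The number of arrays limits the precision. The scripts were tested on simulated data. Alternatives were quantile scaling, a filter on dim genes, the mean of probe sets, no trend, array weights, fewer groups, a replicate block, acinar signal as a covariate and leaving out each array.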

Additional observations from a re-analysis of the deposited data

Results flagged for a closer look

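In 6 cases every mutant array lay above every wild-type array on one diet and below on another. These were 2 members (7.14%) between normal and high-fat diet, against 2.63% of all genes, and 4 (14.3%) between high-fat diet and high-fat diet with butyrate, against 7.57% of all genes. Between normal diet and high-fat diet with butyrate there were 0, against 6.05% of all genes. From normal to high-fat diet the genotype difference changed by 0.44 for Eci1 and by 1.06 for Acot2, both lower in mutants on normal diet and higher on high-fat diet. When butyrate was added to the high-fat diet it changed by -1.15 for Ppara, -0.20 for Cpt2, -0.19 for Etfa and -0.47 for Etfdh, each higher in mutants on high-fat diet and lower with butyrate, where the wild type is 1 array. None of the 6 passed limma's test of the change itself (adjusted p = 0.915 for Eci1 and Acot2, 0.828 for Ppara, 0.926 for Cpt2, 0.932 for Etfa and 0.801 for Etfdh).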

How the results depend on the processing

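Counts of members called that moved by more than 1.5 times are given here, with the cause not tested. Between genotypes with diet as a term (1 called) the count was 0 without the intensity trend and 0 with the replicate block, 2 with array weights, 2 with the acinar covariate and 5 without the butyrate arrays, and 0 to 4 over leaving out each array. For genotype on high-fat diet (0 called) leaving out arrays gave 0 to 1. For high-fat against normal diet (8 called) it was 4 without wild-type and mutant high-fat arrays 2 together, an alternative chosen after seeing the data. These are 2 of the 4 high-fat arrays, the highest and lowest of that diet in acinar signal, and their identifiers share a number whose meaning is not given. In wild type (2 called) it was 1 under quantile scaling, 4 with the mean of probe sets, 1 without the trend, 0 with array weights, 0 with the compared groups alone, 0 with the replicate block, 1 with the acinar covariate, 1 without both arrays 2, and 0 to 4 over leaving out each array. In mutants (8 called) it was 1 without both arrays 2, and 3 to 9 over leaving out each array. For butyrate added (7 called) it was 2 with the replicate block, 4 without both arrays 2, and 4 to 10 over leaving out each array. The range was 2 to 7 in mutants (3 called). In wild type (4 called) it was 0 with the compared groups alone, 1 without both arrays 2, and 0 to 4 over leaving out each array. For butyrate against normal diet (3 called) it was 5 with the mean of probe sets, 6 with array weights, and 2 to 6 over leaving out each array. Cpt1a on high-fat diet reversed to -0.081 with the mean of its probe sets, 1 of which lay under the dim level on all arrays.

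The replicate block ended the calls of Acot1 between genotypes (adjusted p = 0.113), of Acot2 (0.0673) and Ehhadh (0.068) in wild type and of Eci1 (0.0799) and Plin2 (0.0695) in mutants on high-fat diet, of Acot2 (0.0622), Acads (0.0552), Etfdh (0.128), Hadh (0.147) and Slc25a20 (0.206) for butyrate added, and of Acadm (0.157) for butyrate against normal diet. Deviations of same-numbered arrays correlated with a median of 0.012 over 21 pairs, from -0.33 to 0.42. Beyond these correlations, whether arrays of the same number share a batch was not tested. The wild-type butyrate array, which has no number in the labels, was left out of the fit with the replicate block. Acot2, Ehhadh, Hadha and Acaa1a on high-fat diet, Ppara and Hadha with butyrate, and Ehhadh and Ppara for butyrate against normal diet passed in all 22 alternatives run. Quantile scaling moved the median of all genes by at most 0.026 in size. With 1 to 3 arrays per group, members with wide intervals such as Angptl4 and Pdk4 are the least certain.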
